A study of Mus musculus with 42 samples.

Results

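SOX2 ChIP–seq in wild-type (WT) mouse cells grown with and without the WNT agonist CHIR99021 (CHIR) was compared through the peak lists of 6 libraries, 3 with CHIR and 3 without (noCHIR), out of 42 samples in the series. The 42 samples comprise 30 with a peak list and 12 inputs, the chromatin taken before immunoprecipitation. All cells of the comparison derived from 1 HM1 embryonic stem (ES) cell line, which carries a TetON cassette and served as the WT control. They were grown in N2/B27 medium with bFGF and LGK974, an inhibitor of WNT secretion, and then either kept in that medium or given CHIR in addition, and all were collected at 72 h. CHIR inhibits the kinase GSK3. The noCHIR cells are epiblast-like cells (EpiLCs) and the CHIR cells caudal epiblast-like cells (CEpiLCs). A single line limits the comparison as a model of the embryo, and peak lists hold no RNA level, so the identity of the cells could not be checked here against expressed markers. Further lists served as readouts, all at 72 h with CHIR and with 3 libraries each: SOX2 in cells lacking the Cdx genes (CdxKO) and in cells lacking T/Bra (T/BraKO), and β-catenin and LEF1 in WT cells. The knockouts are separate lines, so that line and genotype cannot be told apart.

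SOX2 is a transcription factor with an HMG-box that holds both pluripotent and neural fates. It often binds together with POU factors such as OCT4, encoded by Pou5f1, at a composite of their sites. When GSK3 is inhibited, β-catenin escapes degradation and joins TCF/LEF factors on DNA, as in cells exposed to WNT. In the embryo, WNT signalling drives the epiblast towards the primitive streak and the caudal epiblast, where CDX factors and T act, whereas OTX2 and ZIC factors belong to the formative epiblast and the anterior neural plate.

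The libraries with CHIR were far less alike than those without. The deposited lists held 1008922, 289925 and 205833 peaks in CHIR libraries 1, 2 and 3, and 88643, 81239 and 201773 in noCHIR libraries 1, 2 and 3. Because the lists differed so much in length, the 20000 best peaks of each library by −log10 q, the peak caller's false discovery measure, were compared. At peak 20000, −log10 q was 14.14, 7.281 and 8.204 with CHIR and 9.044, 9.156 and 9.632 without, and the next peak, just outside, had the same value in each library. The median fold enrichment of these peaks over the local background was 10.36, 7.436 and 7.736 with CHIR and 8.982, 9.149 and 8.323 without. CHIR library 1 therefore had the longest list and the highest of these values for the 20000 best peaks. Its strongest peaks were not the strongest of the 6 libraries. Among the first 1000 peaks, the median fold enrichment was 22.42, 15.78 and 25.71 with CHIR and 35.93, 36.28 and 30.78 without. The top −log10 q was 403.5, 770.8 and 813.8 with CHIR and 574.8, 599.5 and 496.4 without. Read depth is unknown from peak lists, and its part in the results was not tested.

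A region is a stretch covered by overlapping peaks of the SOX2 libraries, and 76008 regions held one of the 20000 best peaks in at least 1 of the 6 libraries. Of these, 111 (0.146%) were called in 3 of 3 CHIR and 0 of 3 noCHIR libraries and are termed CHIR-only. A further 2955 (3.89%) were called in 3 of 3 noCHIR and 0 of 3 CHIR libraries and are termed noCHIR-only. Another 1589 were called in all 6 and are termed shared. Both of the first classes are defined by the rank of a peak, not by the absence of any signal beyond rank 20000.

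The DNA under 8 SOX2 summits is printed as examples, 4 CHIR-only, 2 noCHIR-only and 2 shared. They were chosen after their values were seen, for a nearby gene with a role in patterning or for a high rank, and not as typical of a class. Each is 201 bases of the + strand of build mm10, centred on the summit, from the RefSeq reference of that build. Capitals mark matches on either strand to SOX (CCATTGT or CCTTTGT), the SOX–POU composite (TTGTNATGC), the POU octamer (ATGCAAAT), TCF/LEF (CTTTGAA or CTTTGAT), CDX (CAATAAA or CCATAAA or TAATAAA or TCATAAA), OTX (CTAATCC or TTAATCC) and ZIC (CAGCAGG). The composite can overlap the octamer, with which it shares ATGC, and the SOX letters, with which it shares TTGT. The pairs of motifs printed here were uncommon in their classes. SOX with OTX occurred in 149 of 2955 noCHIR-only, SOX with CDX in 11 of 111 CHIR-only and composite with octamer in 23 of 1589 shared regions. The CHIR-only summits, near Hoxa4 (chr6:52190797-52190997, in the gene's intron and within 1000 bp of a start site), Nodal (chr10:61416730-61416930, intergenic), Nkd1 (chr8:88495218-88495418, intergenic) and Fank1 (chr7:133778257-133778457, intron), were:
Hoxa4: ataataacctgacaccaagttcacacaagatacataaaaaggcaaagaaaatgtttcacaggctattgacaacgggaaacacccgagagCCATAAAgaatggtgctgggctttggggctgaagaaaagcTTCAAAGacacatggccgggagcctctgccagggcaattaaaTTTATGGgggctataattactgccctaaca
Nodal: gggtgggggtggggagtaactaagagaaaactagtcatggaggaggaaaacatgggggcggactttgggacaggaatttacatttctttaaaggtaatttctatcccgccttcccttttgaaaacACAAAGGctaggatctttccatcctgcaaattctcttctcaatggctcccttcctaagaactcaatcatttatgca
Nkd1: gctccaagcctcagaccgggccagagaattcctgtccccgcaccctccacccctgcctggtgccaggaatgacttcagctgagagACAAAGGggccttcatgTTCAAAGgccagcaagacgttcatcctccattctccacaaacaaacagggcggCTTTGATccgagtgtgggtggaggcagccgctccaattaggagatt
Fank1: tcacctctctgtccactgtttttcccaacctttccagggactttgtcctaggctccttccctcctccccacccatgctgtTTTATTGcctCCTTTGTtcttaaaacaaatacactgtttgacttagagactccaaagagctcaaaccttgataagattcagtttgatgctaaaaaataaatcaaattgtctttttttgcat

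In these, TCF/LEF letters lay 29 to 35 bases right of the summit at Hoxa4, where CDX letters lay −11 to −5 and 71 to 77 bases from it. At Nkd1 a SOX match at −15 to −9 was followed by TCF/LEF matches at 2 to 8 and 55 to 61. At Fank1 the CDX and SOX matches were separated by a few bases, at −20 to −14 and −10 to −4. The Nodal window held a SOX match alone, at 25 to 31. The noCHIR-only summits, an intergenic one whose nearest protein-coding start is that of Zeb2 (chr2:46507121-46507321) and one in an intron of Lef1 (chr3:131144322-131144522), both paired a SOX match with an OTX match:
Zeb2: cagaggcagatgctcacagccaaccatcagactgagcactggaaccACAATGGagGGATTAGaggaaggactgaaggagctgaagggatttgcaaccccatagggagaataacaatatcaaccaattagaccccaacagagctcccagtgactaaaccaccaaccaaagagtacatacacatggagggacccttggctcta
Lef1: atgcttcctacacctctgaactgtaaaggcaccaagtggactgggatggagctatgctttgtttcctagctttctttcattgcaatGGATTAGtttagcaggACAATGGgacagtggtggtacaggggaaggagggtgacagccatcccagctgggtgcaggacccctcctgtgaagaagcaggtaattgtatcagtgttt

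The shared examples are the best-ranked summit, 494932 bp from its nearest gene Med13l (chr5:119055571-119055771), and one near Klf13 (chr7:63957161-63957361), both intergenic. The first held SOX and TCF/LEF matches side by side and the second a composite running into an octamer:
Med13l: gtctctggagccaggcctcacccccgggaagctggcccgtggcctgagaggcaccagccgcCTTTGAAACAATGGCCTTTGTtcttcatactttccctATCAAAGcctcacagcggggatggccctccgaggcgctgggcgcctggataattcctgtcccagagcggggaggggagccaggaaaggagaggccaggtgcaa
Klf13: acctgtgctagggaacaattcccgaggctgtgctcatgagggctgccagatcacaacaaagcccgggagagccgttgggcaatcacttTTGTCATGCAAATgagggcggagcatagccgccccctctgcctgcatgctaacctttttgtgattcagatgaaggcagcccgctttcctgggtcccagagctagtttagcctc

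Each CHIR library had more regions in common with noCHIR 1 than with either other CHIR library. CHIR libraries 1 and 2 had 2322 regions in common, 11.71% of the regions of the first and 11.73% of the second. CHIR 1 with CHIR 3 shared 3679 regions (18.55% and 18.79%), and CHIR 2 with CHIR 3 shared 3596 (18.16% and 18.36%). By contrast, noCHIR 1 shared 3956 regions with CHIR 1 (20.31% and 19.95%), 3737 with CHIR 2 (19.18% and 18.87%) and 6694 with CHIR 3 (34.37% and 34.18%). NoCHIR 1 and 2 had 11810 in common (60.63% and 60.62%), and noCHIR 3 shared 9968 with the first and 9808 with the second. The Jaccard index, shared regions over all regions of a pair, averaged 0.08858 within CHIR, 0.3706 within noCHIR and 0.1339 between them. The within-group mean exceeded the between-group mean by 0.09563, and in the exact one-sided permutation test this split ranked first of 10 (p = 0.1, the smallest possible). The excess came from the noCHIR libraries, since the highest CHIR pair, at 0.103, lay inside the between-group range of 0.09218 to 0.2068. Without noCHIR 1, 2 or 3 the excess was 0.01983, 0.02014 and 0.0354.

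**Figure D1:**
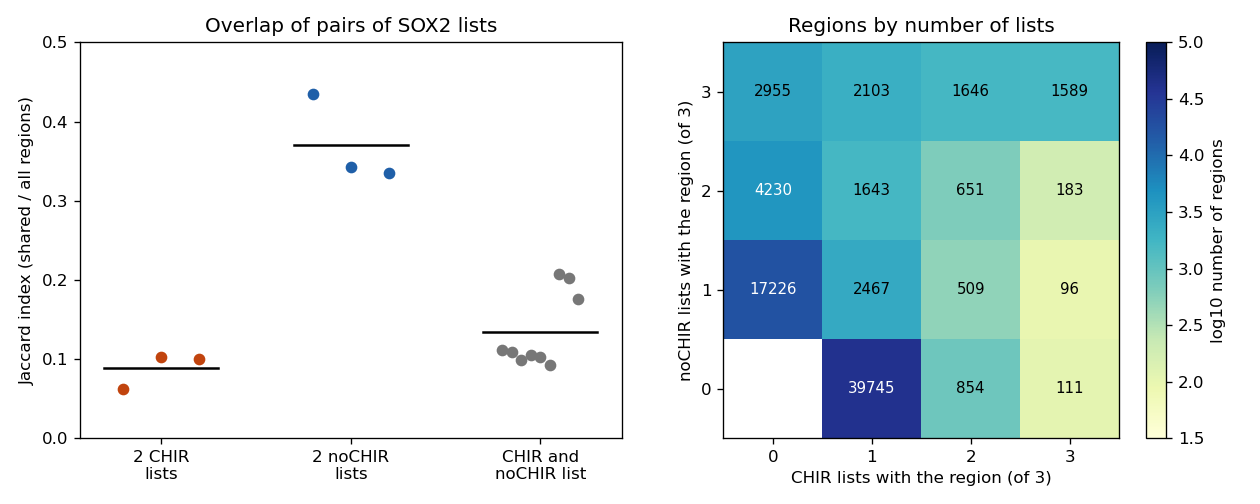
Agreement of the 20000 best SOX2 peaks between libraries. Left, the Jaccard index of each pair of libraries by kind of pair, where noCHIR pairs (0.3347 to 0.435) lie above all others; right, the number of regions by how many CHIR and how many noCHIR libraries called them, with 111 at 3 and 0, 2955 at 0 and 3, and 1589 at 3 and 3.

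Accordingly, most regions seen with CHIR came from 1 library. Of the regions called in no noCHIR library, 39745 were called in 1 CHIR library, 854 in 2 and 111 in 3. Of those called in no CHIR library, 17226 were called in 1 noCHIR library, 4230 in 2 and 2955 in 3. The regions in all 3 noCHIR lists were called in 0, 1, 2 and 3 CHIR lists in 2955, 2103, 1646 and 1589 cases. Leaving out CHIR 1, 2 or 3 gave 473, 483 and 231 CHIR-only regions, with 2 CHIR lists then needed in place of 3, and leaving out noCHIR 3 gave 5115 noCHIR-only regions. In the full lists, 40 of the 111 CHIR-only regions had no noCHIR peak at all, and 30, 26 and 15 had one in 1, 2 and 3 noCHIR libraries. Of the 2955 noCHIR-only regions, 556 had no CHIR peak in the full lists and 387 had one in all 3.

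SOX letters were frequent in all 3 classes, whereas other motifs separated them. A match within 100 bp of the summit was counted and set beside a window moved by 1000 bp, which gives the local background. Values are shares of regions with Wilson 95% confidence intervals, which cover counting error over regions only. Since the same lists chose the regions, these shares are descriptions without a test. The SOX motif was present in 28.83% of CHIR-only (21.22 to 37.85), 34.31% of noCHIR-only (32.62 to 36.05) and 37.19% of shared regions (34.85 to 39.6), against 6.306%, 7.208% and 6.797% in the moved windows. The intervals of the CHIR-only and the other classes overlapped.

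TCF/LEF matches, the letters read by the DNA-binding partners of β-catenin, were present at 40 of the 111 CHIR-only summits (36.04%, 27.71 to 45.3), against 2.703% in the moved windows. That background rests on few windows, and the moved windows of all 76008 regions gave 8.22%. TCF/LEF matches were present in 8.291% of noCHIR-only regions (7.35 to 9.34), close to the 8.156% of their moved windows, and in 15.29% of shared regions (13.61 to 17.15, moved 6.356%). CDX matches were also present at 40 CHIR-only summits (36.04%), against 17.12% in the moved windows, and 17 regions carried both. In noCHIR-only regions (7.479%, moved 17.73%) and shared regions (9.629%, moved 16.74%) CDX letters were rarer at the summit than beside it. Of all 76008 regions, 10.14% held TCF/LEF and 13.92% CDX letters. The 854 regions called in 2 of 3 CHIR and 0 of 3 noCHIR libraries lay in between, with 21.43% and 21.19%. Over the larger classes obtained without CHIR 1, 2 or 3, the CHIR-only shares were 29.18%, 23.6% and 21.21% for TCF/LEF and 25.58%, 26.29% and 22.94% for CDX.

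OTX letters went the other way. They were found in 15.03% of noCHIR-only regions (13.78 to 16.36, moved 3.993%), 5.916% of shared regions and 6.306% of CHIR-only regions (3.088 to 12.45), the latter 2 near their moved windows of 5.538% and 5.405%. SOX and OTX letters occurred together in 149 noCHIR-only regions. ZIC letters were present in 25.04% of noCHIR-only (23.51 to 26.64), 21.08% of shared and 18.02% of CHIR-only regions (11.98 to 26.2), all above their moved windows of 6.024%, 4.154% and 4.505%. The SOX–POU composite was most frequent in shared regions, at 8.244% (6.99 to 9.699), followed by 4.67% of noCHIR-only regions (3.966 to 5.491) and 1 of the 111 CHIR-only regions. None of the SOX, CDX and TCF/LEF motifs was present at 33 CHIR-only, 1629 noCHIR-only and 764 shared summits.

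**Figure D2:**
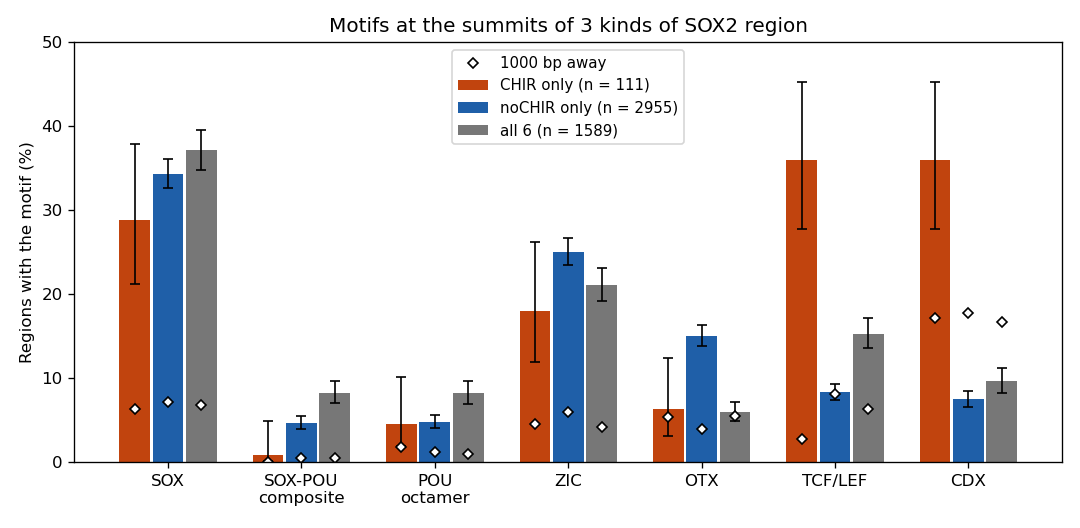
Share of regions of each class with a motif within 100 bp of the summit (bars, percent) with Wilson 95% confidence intervals, beside the share in windows moved by 1000 bp (diamonds). TCF/LEF and CDX both reach 36.04% in CHIR-only regions, whereas OTX reaches 15.03% in noCHIR-only regions.

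Over whole libraries the groups differed in the same direction for SOX, TCF/LEF, CDX, OTX and ZIC letters. The share of the 20000 summits with a SOX match was 15.33%, 14.93% and 21.02% with CHIR and 30.77%, 32.68% and 26.13% without, so the groups did not overlap. The means were 17.09% ± 3.405 (SD, n = 3) and 29.86% ± 3.371 (SD, n = 3), and the moved windows gave 7.222% and 7.065%. For ZIC, the shares were 9.07%, 8.82% and 12.93% with CHIR and 20.16%, 19.98% and 17.27% without. For OTX, they were 4.73%, 5.115% and 4.815% with CHIR, at or under the 5.177% of the moved windows, and 7.83%, 8.96% and 8.63% without. SOX, ZIC and OTX letters were thus each rarer in every CHIR library than in any noCHIR library.

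CDX shares were 16.01%, 14.85% and 15.19% with CHIR and 8.6%, 8.82% and 10.91% without, a difference of 5.905 percentage points. Both group means (15.35% ± 0.5998 and 9.445% ± 1.278, SD, n = 3) lay under those of the moved windows (17.13% and 16.27%), so CDX letters were not concentrated at the summits of the whole lists in either group. TCF/LEF shares were 10.59%, 10.75% and 12.75% with CHIR and 9.455%, 9.79% and 10.02% without (moved 8.248% and 7.96%). The composite was present at 2.217% ± 0.5499 and 3.933% ± 0.3585 of summits, and the octamer at 3.117% and 4.502%. Each of these 7 motifs reached the smallest two-sided exact permutation p of 3 against 3 libraries, 0.1 (adjusted p = 0.1714 over 12 motifs), so none could pass 0.05 in this design. Without CHIR 1 the SOX difference was −11.89 and the CDX difference 5.572 points. T-box (AGGTGTGA), FOXH1 (AATCCACA), KLF (GGGTGTGG), ESRRB/NR5A2 (TCAAGGTCA) and AP-1 (TGAGTCA or TGACTCA) letters had exact permutation p from 0.2 to 0.7 in this comparison.

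The 6 CdxKO and T/BraKO libraries with CHIR allowed a larger comparison, of the same 3 noCHIR libraries against all 9 CHIR libraries, in which genotype differs together with CHIR for 6 of the 9. In the exact two-sided permutation test over 220 assignments, TCF/LEF (12.33% ± 1.146, n = 9), OTX (4.824% ± 0.2175, n = 9) and ZIC (12.96% ± 2.616, n = 9) each gave p = 0.004545, the smallest possible (adjusted p = 0.01818). The SOX difference was −8.169 points there (exact permutation p = 0.01818, adjusted p = 0.03636). The CDX difference was 3.752 points (exact permutation p = 0.03636, adjusted p = 0.06234), and the composite gave exact permutation p = 0.08182. This test treats libraries of WT and both knockout lines as exchangeable. By line, CDX shares were 10.4%, 9.54% and 11.1% in CdxKO, which overlapped the noCHIR libraries (8.6% to 10.91%). In T/BraKO they were 13.99%, 12.02% and 15.68%, so the CDX difference did not hold in every line. T-box letters (1.0% of summits with CHIR, 0.74% without) and ESRRB/NR5A2 letters (0.4611% and 0.3167%) had exact permutation p = 0.01364 each (adjusted p = 0.03273). In the moved windows of the WT lists, T-box letters were present in 0.8217% with CHIR and 0.8867% without. For ESRRB/NR5A2 the moved windows gave 0.4683% and 0.52%, above the WT summit means of 0.4167% and 0.3167%. ESRRB/NR5A2 letters were thus not concentrated at WT summits in either group.

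**Figure D3:**
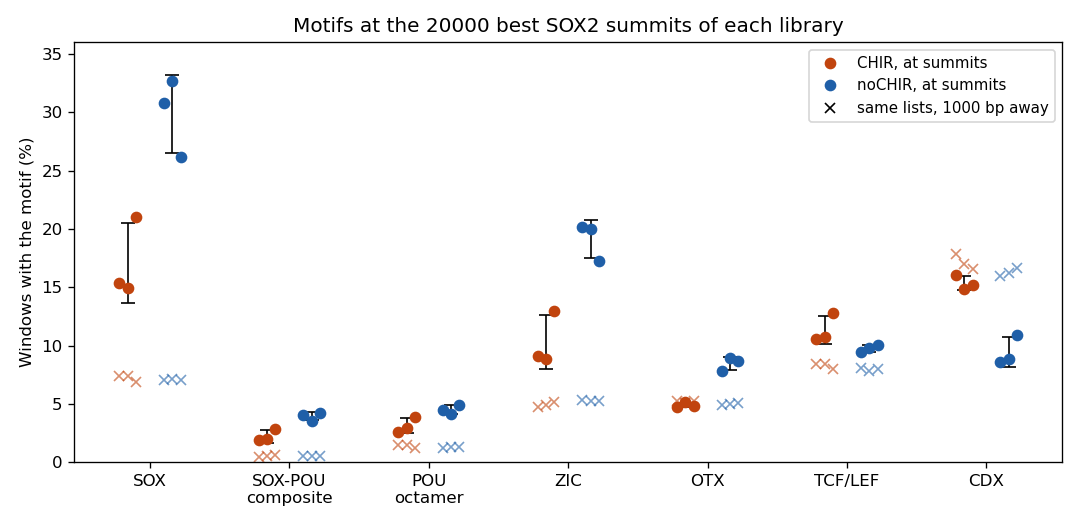
Share of the 20000 best SOX2 summits of each WT library with a motif within 100 bp (points, percent), with the group mean ± SD (bars, n = 3) and the share 1000 bp away (crosses). The groups do not overlap for SOX (14.93% to 21.02% with CHIR, 26.13% to 32.68% without), OTX, ZIC, CDX or TCF/LEF.

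The motif shares were also taken by rank. Among the first 1000 summits of each list, SOX letters were present in 39.5%, 32.1% and 35.4% with CHIR and 44.2%, 46.4% and 39.4% without, so that the highest CHIR library was level with the lowest noCHIR library. At ranks 5001 to 20000 they were present in 12.24%, 12.31% and 17.65% against 28.15%, 30.37% and 23.09%. The composite was present in 8.4%, 8.7% and 9.9% of the first 1000 with CHIR and 7.9%, 6.8% and 11.0% without, so that here the groups overlapped. TCF/LEF letters showed the reverse dependence, with 16.8%, 17.6% and 19.5% against 10.4%, 11.8% and 10.2% in the first 1000 and 9.76%, 9.867% and 11.25% against 9.34%, 9.733% and 10.02% at ranks 5001 to 20000. SOX letters had a lower mean share with CHIR in each range of ranks, with 20.9%, 20.47% and 30.08% against 37.25%, 37.95% and 34.2% at ranks 1001 to 5000. There TCF/LEF letters were present in 12.12%, 12.35% and 16.65% against 9.65%, 9.5% and 9.975%. No test of a dependence on rank was made.

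Promoter shares were higher with CHIR among the first 1000 summits but not over all 20000. Summits within 1000 bp of a transcription start made up 13.76%, 11.77% and 19.13% with CHIR and 20.32%, 18.93% and 16.07% without (14.89% ± 3.811 and 18.44% ± 2.165, SD, n = 3, exact permutation p = 0.3). In the first 1000 the shares were 20.9%, 19.6% and 18.3% with CHIR and 13.3%, 11.5% and 11.7% without. Among the 5000 best the difference was 4.053 points higher with CHIR (exact permutation p = 0.1). Exons held 3.41% of summits with CHIR and 2.577% without (exact permutation p = 0.1), introns 40.46% and 38.38% (exact permutation p = 0.2) and intergenic DNA 41.24% and 40.6% (exact permutation p = 0.7). Mean GC content around the summits was 46.27%, 46.5% and 48.51% with CHIR and 50.65%, 50.42% and 48.22% without (exact permutation p = 0.2).

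CHIR-only and noCHIR-only regions lay mostly away from promoters. Promoter regions numbered 12 of 111 (10.81%, 6.293 to 17.95) and 281 of 2955 (9.509%, 8.504 to 10.62), against 368 of 1589 shared regions (23.16%, 21.15 to 25.3) and 14.12% of all regions. CHIR-only regions were in introns in 42 cases and intergenic in 55. The median distance to a protein-coding start was 28820 bp for CHIR-only, 40840 bp for noCHIR-only and 22160 bp for shared regions, and the median GC content was 44.78%, 48.26% and 50.25%. The summit base was in soft-masked repeat sequence in 18 of 111 (16.22%, 10.51 to 24.18), in 20.58% of noCHIR-only and in 18% of shared regions. The 31 bases at the summit occurred more than once in the genome for 8 of 111 CHIR-only (7.207%, 3.697 to 13.58), 196 noCHIR-only (6.633%, 5.791 to 7.588) and 93 shared regions (5.853%, 4.802 to 7.117), with intervals that overlap. In whole libraries the masked share was 22.57%, 23.8% and 20.16% with CHIR and 18.7%, 17.58% and 20.4% without (exact permutation p = 0.2).

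The best-ranked CHIR-only regions had nearest genes of varied function, named here at any distance. The first (chr5:146919553-146921185), 28413 bp from Gtf3a, which encodes the transcription factor of the 5S rRNA genes, had fold enrichments of 61.53, 16.44 and 62.16 with CHIR, and of 5.642, 4.248 and 4.66 in the full noCHIR lists. It held SOX and CDX letters. The third (chr3:159926466-159926949) lay in an intron nearest to Wls, whose product carries WNT proteins to the cell surface. Its fold enrichment was 16.04, 13.31 and 32.95 with CHIR, with no noCHIR 1 peak and with 6.284 and 3.871 in noCHIR 2 and 3. The fifth, the Fank1 intron printed above, had 18.16, 11.38 and 31.82 with CHIR and no peak in any noCHIR list. The others of the first 10 were nearest to Vwc2 (2 regions, at 588954 and 246321 bp), Hist1h2bm, Limk2, Ctag2 (467078 bp), B4galt5 and Grsf1. The 31 bases at the lower-ranked of the Vwc2 summits occurred 9 times in the genome. At the other end, the CHIR-only region with the poorest mean rank, 15440, was nearest to Smad6, an inhibitor of BMP signalling.

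The noCHIR-only regions began with an intergenic one nearest to Zeb2 (chr2:46506895-46507710), a zinc-finger factor of neural and neural crest development, at a distance of 1389826 bp. Its fold enrichment was 53.41, 63.73 and 45.58 without CHIR, with no peak in any full CHIR list, and its summit base was in repeat sequence. An intronic region nearest to Sfrp2 (chr3:83786632-83787497), a secreted WNT inhibitor, lay within the antisense gene Gm26771 and had 36.7, 60.6 and 59.32, and one in an intron of Lef1 (chr3:131143998-131144652), a target and partner of β-catenin, with 35.67, 46.52 and 22.12. Both had a peak in CHIR 2 alone, of 5.843-fold each. The rest of the first 10 were nearest to Nrcam (311818 bp), 3100002H09Rik (168771 bp), Cdh11 (360148 bp), Svep1, Clcn3, Mon1b and Pnpt1. Among shared regions the first, nearest to Med13l, had 108.9, 61.94 and 48.18 with CHIR and 118.5, 126.8 and 80.46 without. The Klf13 region had 96.56, 57.43 and 106.6 against 84.82, 67.66 and 73.39.

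CHIR-only SOX2 regions were mostly β-catenin regions as well. Of the 111, 98, 88 and 86 (88.29%, 79.28% and 77.48%) were called among the 20000 best β-catenin peaks of the 3 WT CHIR libraries. For noCHIR-only regions the shares were 12.39%, 8.46% and 7.513%, close to the 10.51%, 8.023% and 8.032% of all regions, and for shared regions 72.81%, 60.86% and 58.46%. The 854 regions called in 2 of 3 CHIR and 0 of 3 noCHIR libraries gave 44.5%, 37.35% and 39.46%. LEF1 lists called 41.44%, 37.84% and 44.14% of CHIR-only, 2.538%, 1.523% and 1.523% of noCHIR-only and 24.48%, 17.12% and 20.58% of shared regions. Every β-catenin and LEF1 library therefore ranked the classes in the same order. The β-catenin libraries came from CHIR-treated cells, so that no β-catenin value without CHIR enters. Averaged over the libraries, 81.68% of CHIR-only regions were β-catenin regions, and without CHIR 1, 2 or 3 this was 58.35%, 47.83% and 47.76%, over the then larger classes. For noCHIR-only regions the mean was 9.453%, and 14.76% without CHIR 3.

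Among the 20000 best peaks, SOX2 in the knockout lines called CHIR-only regions more often than noCHIR-only ones. Their calls took no part in choosing the classes, but their peaks were merged with those of the WT libraries in setting where regions begin and end. CdxKO libraries called 56.76%, 60.36% and 56.76% of CHIR-only and 31%, 42.64% and 26.84% of noCHIR-only regions. T/BraKO libraries called 61.26%, 66.67% and 72.97% of CHIR-only and 21.32%, 38.07% and 28.66% of noCHIR-only regions. Shared regions were called in 93.96% to 98.05%, and all 76008 regions in 11.3% to 15.88%. Of the 854 regions called in 2 of 3 CHIR and 0 of 3 noCHIR libraries, CdxKO libraries called 29.63%, 28.69% and 29.86%. T/BraKO libraries called 25.88%, 30.68% and 42.74% of them, within or near the range of noCHIR-only shares. Over the libraries that defined them, the median of the mean rank was 4105 for CHIR-only, 7496 for noCHIR-only and 2407 for shared regions. The part of rank in these calls was not tested. In the full lists the gap was smaller for CdxKO, with 77.48%, 75.68% and 76.58% of CHIR-only against 62.77%, 65.45% and 57.19% of noCHIR-only regions. The full T/BraKO lists gave 81.08%, 81.98% and 80.18% against 56.01%, 64.37% and 33.3%. T/BraKO library 3 had a short list of 26940 peaks, with −log10 q of 3.259 at peak 20000.

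CDX letters separated the CHIR-only regions called in CdxKO cells from those not called. Of the 40 regions with a CDX match, the CdxKO libraries called 11, 14 and 11 (27.5%, 35.0% and 27.5%), and of the 71 without, 52, 53 and 52 (73.24%, 74.65% and 73.24%). In T/BraKO cells, in which the Cdx genes were not deleted, 24, 28 and 34 of the 40 with a match (60%, 70.0% and 85.0%) and 44, 46 and 47 of the 71 without (61.97%, 64.79% and 66.2%) were called. The share with a match minus the share without was −43.71 ± 3.517 points in CdxKO and 7.347 ± 10.55 points in T/BraKO (SD, n = 3 each). The difference of −51.06 points gave an exact two-sided permutation p of 0.1, the smallest possible for 3 against 3 (adjusted p = 0.3 over 12 such tests), and no CdxKO library overlapped any T/BraKO library. Leaving out 1 library of either line or of the WT comparison gave −55.72 to −32.25 points, the latter without CHIR 3. With regions merged over the 6 WT libraries alone it was −50.74 points. The difference was −31.48 points with the 5000 best peaks of each list and −14.43 points with the full lists.

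The 854 regions called in 2 of 3 CHIR and 0 of 3 noCHIR libraries, which share no region with the 111, gave the same direction. With a CDX match (181 regions), 17.68%, 20.44% and 21.55% were called in CdxKO, and without (673 regions) 32.84%, 30.91% and 32.1%. In T/BraKO the shares were 34.25%, 41.99% and 63.54% with and 23.63%, 27.64% and 37.15% without. The gaps of −12.06 ± 2.686 and 17.12 ± 8.238 points differed by −29.18 points (exact permutation p = 0.1). In shared regions the gaps were −3.704 ± 0.4575 and 0.5246 ± 1.443 points (difference −4.229, exact permutation p = 0.1), and in noCHIR-only regions −7.181 and −2.38 (difference −4.801, exact permutation p = 0.2). TCF/LEF matches gave no comparable contrast between the lines in CHIR-only regions (12.31 against 13.86 points, difference −1.549, exact permutation p = 0.7), nor did SOX matches (13.7 against 21.53 points, difference −7.832, exact permutation p = 0.3).

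TCF/LEF letters in turn went with β-catenin and LEF1. Of the 40 CHIR-only regions with a TCF/LEF match, β-catenin libraries called 40, 39 and 39, and of the 71 without, 58, 49 and 47 (81.69%, 69.01% and 66.2%). LEF1 libraries called 25, 27 and 29 of the 40 (62.5%, 67.5% and 72.5%) and 21, 15 and 20 of the 71 (29.58%, 21.13% and 28.17%). The same held in shared regions, where 55.56%, 44.86% and 52.26% of the 243 with a match and 18.87%, 12.11% and 14.86% of those without were LEF1 regions. CDX matches made no such division of CHIR-only regions in the β-catenin lists (90.0%, 75% and 77.5% with, 87.32%, 81.69% and 77.46% without). These β-catenin and LEF1 shares are given without a test.

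**Figure D4:**
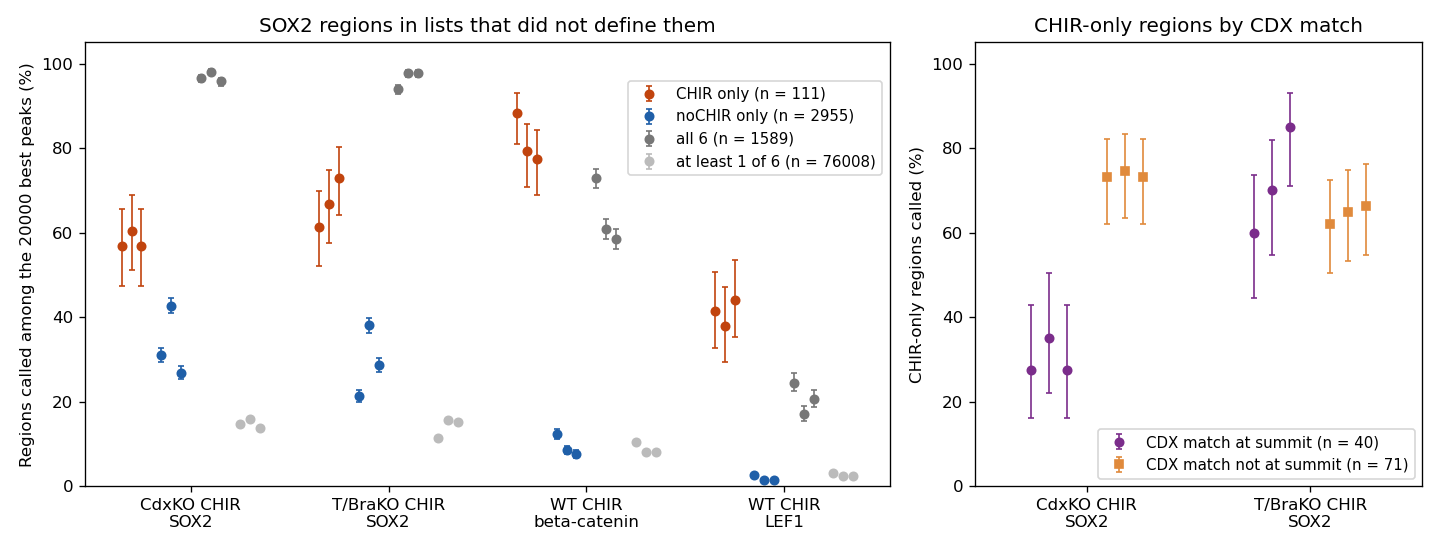
Calls of the region classes in other ChIP–seq libraries, as the share of regions (percent) holding one of the 20000 best peaks of each library, with Wilson 95% confidence intervals. Left, the 3 classes in CdxKO SOX2, T/BraKO SOX2, WT β-catenin and WT LEF1 libraries; right, CHIR-only regions with (n = 40) and without (n = 71) a CDX match, where CdxKO libraries call 27.5% to 35.0% with and 73.24% to 74.65% without, and T/BraKO libraries do not divide them so.

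SOX2 summits were then counted per gene, each summit going to the nearest protein-coding start within 100 kb, so that neighbouring genes share none. Of 15737 genes with a summit, 352 (2.24%) had more in every CHIR than in any noCHIR library, and 688 (4.37%) had more in every noCHIR library. In all, 10 lists of genes were counted, and a list is given by its members whose groups do not overlap, by direction, and by its median difference, which was 0.0 summits over all genes. These counts carry no test. The shares over all genes are not matched to a list in summits per gene, and a gene with few summits can rarely separate the groups. Without CHIR 1, 2 or 3 there were 876, 896 and 1016 genes higher with CHIR, and 535 without noCHIR 3. Genes higher without CHIR numbered 1052, 1019 and 1296 without CHIR 1, 2 or 3, and 1185 without noCHIR 3.

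The pluripotency genes differed among themselves. Of 18 core and formative epiblast genes, 0 were higher with CHIR and 3 without, and the median difference was −1.333 summits. Sox2 itself (chr3:34650405-34652461) had 5, 8 and 6 summits with CHIR and 13, 11 and 10 without. Of its noCHIR-only regions, one lay 20785 bp (chr3:34671070-34671639, with a SOX match) and one 9635 bp (chr3:34659842-34660215) from its start. Otx2, of the formative epiblast and anterior neural plate, had 5, 8 and 5 against 12, 14 and 10, and the POU factor gene Pou3f1 had 0, 4 and 1 against 5, 6 and 5. The groups did not overlap for any of these 3 genes.

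For the other core genes the groups did overlap. Pou5f1 had 3, 4 and 4 summits against 5, 3 and 5, and its best peak ranked 65, 191 and 122 with CHIR and 119, 338 and 223 without, near the top of all 6 lists. Nanog had 2, 2 and 2 against 2, 4 and 3. Fgf5, a formative epiblast growth factor, had 0, 1 and 0 against 1, 2 and 2, and its best peak ranked 10932 in CHIR 2, lay outside the 20000 best in CHIR 1 and 3, and ranked 1086, 2091 and 6051 without CHIR. None of the 15 naive pluripotency genes separated in either direction.

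Anterior neural genes held most of the list genes that were lower with CHIR. Of 25, 8 were higher without CHIR (Six3, Hesx1, Lhx2, En2, Nkx2-1, Fezf2, Sox1 and Zeb2) and 0 with it. Over all genes with a summit these shares were 4.37% and 2.24%, but genes with as many summits were not taken as a comparison. Their summed summits were 69, 61 and 78 with CHIR and 114, 124 and 84 without. Lhx2, an eye and forebrain factor, had 3, 2 and 2 against 7, 7 and 6. Nkx2-1, of the ventral forebrain, had 1, 0 and 1 against 4, 6 and 4, and its best peak ranked 2971 and 7057 in CHIR 1 and 3, lay outside the 20000 best in CHIR 2, and ranked 584, 903 and 1353 without CHIR. Zeb2 had 5, 6 and 7 against 10, 12 and 8, but its mean difference turned to 0.6667 higher with CHIR among the 5000 best peaks. Six3, of the anterior forebrain, had 3, 3 and 5 against 6, 9 and 6. A gene of this list was nearest to 13 of 2955 noCHIR-only (0.4399%), 8 of 1589 shared (0.5035%) and 0 of 111 CHIR-only regions. At shares this low, 0 of 111 does not set the CHIR-only class apart. The noCHIR-only ones included 3 by Nkx2-1 and 2 each by Hesx1 and Lhx5.

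Of 39 Hox genes, which set position along the trunk, 5 were higher with CHIR (Hoxa4, Hoxa7, Hoxa13, Hoxb4 and Hoxd4) and 0 without. Their summed summits overlapped, with 44, 58 and 92 against 44, 53 and 37 and CHIR 3 highest. Hoxa4 had 2, 1 and 1 summits against 0 in each noCHIR library, Hoxb4 4, 5 and 6 against 1, 3 and 2, Hoxa13 2, 3 and 2 against 1, 0 and 1 (its mean difference turned to −0.6667 with the 50000 best peaks), and Hoxa7 1, 1 and 2 against 0 in each. Hoxb9 had 2, 2 and 3 against 2, 1 and 0, where the groups overlap, and its best peak ranked 328, 8932 and 2600 with CHIR, 8055 and 17513 in noCHIR 1 and 2, and outside the 20000 best in noCHIR 3. Summits over the Hoxa cluster numbered 10, 18 and 25 against 7, 9 and 6. Over Hoxd (5, 10 and 12 against 6, 7 and 5), Hoxb (21, 20 and 38 against 20, 26 and 17) and Hoxc (8, 10 and 17 against 11, 11 and 9) the groups overlapped, with CHIR 3 highest in each cluster.

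Of 24 caudal epiblast genes, Fgf8 and Meis3 were higher with CHIR and Meis1 lower, and the groups overlapped for the others. Fgf8, the growth factor of the caudal epiblast and streak, had 3 summits in each CHIR library and 1, 1 and 0 without, and Meis3 had 1, 2 and 1 against 0 in each. Meis1, a cofactor of Hox proteins, had 4, 4 and 8 against 16, 14 and 9. The groups overlapped for T (2, 8 and 6 against 3, 4 and 3), Cdx2 (3, 5 and 3 against 3, 1 and 3), Cdx4 (1, 0 and 2 against 0 in each) and Cdx1 (2, 1 and 2 against 1 in each). The best Cdx2 peak nevertheless ranked 591, 288 and 1135 with CHIR and 4532, 3620 and 3653 without, and the best peak of T ranked 225, 1041 and 795 against 362, 1219 and 294.

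WNT pathway genes carried SOX2 in both groups. Of 18, the receptor gene Fzd10 (6, 9 and 7 against 4, 5 and 5) and the pathway inhibitor Nkd1 (5, 5 and 6 against 4, 4 and 3) were higher with CHIR, and the inhibitor Apcdd1 (0 in each against 1 in each) was lower. Axin2, the feedback inhibitor, had 3, 4 and 9 against 6, 7 and 2, and Lef1 had 7, 7 and 6 against 8, 10 and 6, so the groups overlapped. The target Sp5 also overlapped in number (7, 4 and 7 against 4, 6 and 3), but its best peak ranked 604, 86 and 83 with CHIR and 2442, 2691 and 2876 without. NoCHIR-only regions lay by Tcf7l1 (2), Axin2, Ctnnb1, Lef1 and Znrf3.

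Of 20 primitive streak genes, Nodal and Lefty1 were higher with CHIR and none was lower. Nodal, the TGF-β ligand of the streak, had 2, 2 and 3 summits against 0 in each, and its best peak ranked 3323, 676 and 2781 with CHIR and lay outside the 20000 best in each noCHIR library. Its feedback inhibitor Lefty1 had 3 in each against 1, 2 and 2, with best ranks of 171, 115 and 95 against 412, 685 and 824. Ripply2 (1 in each against 0 in each) was the only one of 15 paraxial mesoderm genes to separate, and Tbx6 had no summit in any library. Extraembryonic genes (12) and genes of unrelated tissues (16) had no member that separated in either direction. The summed summits of the extraembryonic list, which shares Cdx2 and Eomes with other lists, were nevertheless higher in each CHIR library (27, 23 and 29 against 19, 21 and 19, median difference 0.6667), whereas those of the unrelated list overlapped (8, 4 and 7 against 3, 5 and 5).

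**Figure D5:**
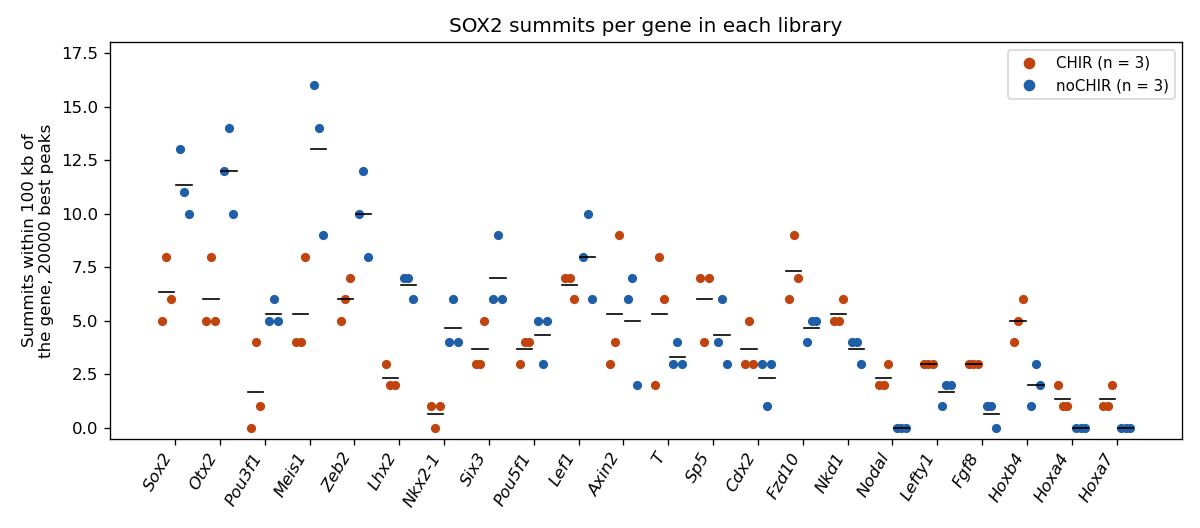
SOX2 summits assigned to named genes in each WT library (points) with group means (lines), from the 20000 best peaks per library. Sox2, Otx2, Lhx2 and Meis1 lie lower in all 3 CHIR libraries, and Nodal and Hoxb4 higher.

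Of the 111 CHIR-only regions, 8 were nearest to a gene of these lists, and all 8 were called in 3 of 3 β-catenin libraries. These libraries called 88.29%, 79.28% and 77.48% of all 111, so this does not set the 8 apart from their class. WNT pathway genes were nearest to 1.802% of CHIR-only, 0.203% of noCHIR-only and 0.5664% of shared regions. The shares were 0.9009%, 0.203% and 1.007% for caudal epiblast genes and 0.9009%, 0.06768% and 0.4405% for primitive streak genes. These CHIR-only shares rest on 1 or 2 regions each, and shares over all 76008 regions were not counted. The Hoxa4 region (chr6:52190326-52191347) had fold enrichments of 12.78, 13.28 and 23.91 with CHIR and no noCHIR peak in the full lists. The Nodal region (chr10:61415615-61417137), 1142 bp from the start, had 11.84, 14.87 and 11.05 with CHIR and 6.018, 4.762 and 5.903 without. The Hoxb9 region (chr11:96271728-96272863) had 24.67, 7.114 and 10.95 against 6.041, 5.391 and 3.959. Others were by Hoxb8, Fgf8, Fzd10 and Nkd1.

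CDX letters were present at the Hoxa4, Hoxb8, Hoxb9, Fgf8 and Fzd10 summits. CdxKO libraries called these regions in 1, 1, 0, 0 and 2 of 3 cases and T/BraKO libraries in 3, 2, 3, 0 and 3. The Nodal and Nkd1 regions, without CDX letters, were called in 3 of 3 libraries of both lines, and both held SOX letters. Caudal epiblast genes were in turn nearest to 16 shared regions, including those of Sp8 (3), T (2), Sp5 (2), Wnt3 (2), Wnt8a (2), Cdx1 and Cdx2, so that many caudal genes carried SOX2 with and without CHIR. CHIR-only regions were scattered, with 83 genes within 100 kb and only Snx29 having 2. NoCHIR-only regions lay by 1795 genes, of which 223 had 2 or more, and Anks1b, Etv5, Fzd7, Tal2 and Thrb had 4 each.

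Differences in strength within regions were fitted to the fold enrichment of the strongest full-list peak, with limma over the 19037 regions called in at least 2 of the 6 libraries. Of these, 6395 had a peak in all 6 full lists. The filter was passed through calls in CHIR libraries alone by 854 and 111 regions, and in noCHIR libraries alone by 4230 and 2955. At an adjusted p of 0.05, 872 regions (4.58%) were higher and 782 (4.11%) lower with CHIR. Without quantile normalisation, which holds the median near 0 (−0.02 on the log2 scale), the counts were 241 and 3326, so the balance of the directions rests on that step. A missing peak was set to a floor of 2.534- to 2.916-fold, and regions enter partly through the group in which they are high. A fitted difference therefore depends on that floor and on the filter. The counts and the values of single regions are given as a description, not as a test. The Gtf3a region had a fitted log2 difference of 3.80, followed among higher regions by a region near Grsf1 (chr5:88679269-88680272), with fold enrichments of 24.88, 38.77 and 49.33 against 8.983, 4.213 and 6.452, and by one nearest to Vwc2. The most strongly lower regions were those nearest to Zeb2 (−3.71, with all 3 CHIR values at the floor), Mon1b (chr8:113555039-113555408, −3.33) and Slc25a40 (chr5:8488667-8489410), with 7.798, none and 7.27 against 55.33, 122.4 and 34.84. Without noCHIR 1, 2 or 3 the fit called 253, 173 and 178 regions higher and 249, 186 and 194 lower, and without CHIR 2 or 3 it called 537 and 425 higher and 502 and 402 lower.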

How the data were processed

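SOX2 peak lists of 3 CHIR and 3 noCHIR WT libraries were analysed, with CdxKO and T/BraKO SOX2 and WT β-catenin and LEF1 lists as readouts; 12 further lists were not used. Per the study's methods, the authors trimmed single-end reads with Trim Galore, aligned them to mm10 with BWA, filtered them with SAMtools, BAMTools and picard in nf-core/chipseq, and called narrow peaks with MACS2 separately in each library of biological triplicates. Chromatin was set aside as input, but how inputs entered the peak calling is not given in the sources used here. Each deposited list gives fold enrichment, a linear ratio over local background, −log10 p and −log10 q, with the summit's offset as a further deposited column. The lowest deposited −log10 q of each library was at the MACS2 default of q = 0.05.

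For the lists used, the 20000 best peaks by −log10 q were taken. Peaks of all 12 SOX2 libraries that overlapped by 1 bp were merged into regions. Each motif was counted as present when either strand held it within 100 bp of a summit, and likewise in a window moved by 1000 bp. Promoters were taken as 1000 bp around any transcription start of GENCODE M21, and genes by the nearest protein-coding start within 100 kb. Libraries were compared by exact permutation tests with Benjamini-Hochberg adjustment over 12 motifs or 4 places. Fold enrichments were compared with limma 3.58.1 in R 4.3.3 after log2 transformation and quantile normalisation, with missing peaks set to the 1st percentile of the library's list. The other steps used Python 3.11.15, numpy 2.4.6, pandas 2.3.3 and scipy 1.17.1, and the region classes, motif search, permutation tests and limma fit were tested on simulated data. Peak lists give no read depth, so no counting error per peak could be given, and Wilson 95% intervals cover the number of regions only.

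The members and gene lists were chosen with earlier results of these data known. The named genes were 15 always given (Sox2, Pou5f1, Nanog, Fgf5, Otx2, Nodal, T, Cdx1, Cdx2, Cdx4, Axin2, Sp5, Lef1, Tbx6 and Hoxb9), up to 4 non-overlapping genes per list, the nearest genes of the 10 best-ranked regions of each class, the 5 genes with most regions of each class, and the 3 regions with the smallest limma p in each direction. The search for CDX, TCF/LEF and SOX letters among knockout calls, the repeat counts and the printed sequences were added after the data were seen. A region near a listed gene is not reported here.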

Additional observations from a re-analysis of the deposited data

How the results depend on the processing

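Changing which peaks enter moved counts and class shares most, and the cause was not tested unless the setting itself lengthens or shortens the lists. With the 5000 best peaks per library there were 947 noCHIR-only and 733 shared regions, and 124 genes higher with CHIR and 395 higher without. With 50000 there were 4579 noCHIR-only and 2458 shared regions and 598 genes higher with CHIR. With the full lists, which differ in length, 2693 regions were CHIR-only and 7636 shared, 6972 genes were higher with CHIR and 0 without. With −log10 q of at least 5, 414 regions were CHIR-only and 3622 shared, 2310 genes were higher with CHIR and 15 without. Genes within 20000 bp numbered 183 higher with CHIR. The promoter difference reversed to 4.053 points with the 5000 best peaks (exact permutation p = 0.1).

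The SOX and CDX differences kept their direction under every setting run. Their unadjusted p fell under 0.05 only against all 9 CHIR libraries, at −8.169 points (exact permutation p = 0.01818, adjusted p = 0.03636) and 3.752 points (exact permutation p = 0.03636, adjusted p = 0.06234). That set pools WT and knockout lines, and the CDX shares of CdxKO libraries overlapped those without CHIR.

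The CDX share of CHIR-only regions was 23.57% with 5000 best peaks, 17.49% with full lists and 27.29% at −log10 q of at least 5, and the TCF/LEF share 13.85% and 26.09% in the latter 2. The OTX share of noCHIR-only regions was 19.85% with 5000 and the ZIC share 21.09% with full lists. On average 67.56%, 14.99% and 47.5% of CHIR-only regions were β-catenin regions with 50000, full lists and −log10 q of at least 5. For noCHIR-only regions the values were 16.58% with 5000, 7.6% with 50000, 3.46% with full lists and 5.429% at −log10 q of at least 5.

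Limma called 241 regions higher and 3326 lower without quantile normalisation, 175 and 260 with only regions that had a peak in all 6 full lists, 528 higher with regions called in at least 3 libraries, and 217 and 1539 with no filter.

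Leaving out 1 library gave 136 to 483 CHIR-only, 3270 to 5115 noCHIR-only and 1626 to 2377 shared regions, and a Jaccard excess of 0.01983 to 0.1901. The SOX difference was −14.73 to −11.35, the CDX difference 5.482 to 6.64 and the promoter difference −5.678 to −1.995 points. Genes higher with CHIR numbered 461 to 1016 and without 977 to 1296. CHIR-only shares were 21.21% to 36.03% for TCF/LEF and 22.94% to 32.62% for CDX, and noCHIR-only shares 12.45% to 14.95% for OTX and 23.81% to 25.23% for ZIC. The β-catenin means were 47.76% to 81.13% and 8.775% to 14.76%, and limma called 173 to 775 higher and 186 to 629 lower.

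Genes lower with CHIR turned higher with lists of unequal length, as mean summits with CHIR minus without. With full lists the differences were 29 for Sox2, 26.33 for Otx2, 2.667 for Pou3f1, 9.667 for Lhx2, 18.33 for Nkx2-1, 34.33 for Zeb2, 11 for Six3, 11 for Meis1 and 24.33 for Apcdd1. At −log10 q of at least 5 they were 0.6667 for Sox2, 4.667 for Otx2, 0.6667 for Lhx2, 2.667 for Nkx2-1, 11.67 for Zeb2 and 8.333 for Apcdd1. With lists of equal length, Zeb2 turned to 0.6667 with the 5000 best peaks and Hoxa13 to −0.6667 with 50000.

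Replicate numbers are shared between groups, and the libraries were treated as unpaired. Deviations of same-numbered libraries from their group means correlated by −0.005, 0.001 and 0.011, and those of other pairs by −0.012 to 0.013. The paper states that triplicates came from separate experiments. Values this near 0 for every pair cannot tell whether same-numbered libraries shared an experiment. With the replicate block the SOX difference of −12.77 and the CDX difference of 5.905 points had exact permutation p = 0.25, the smallest possible, and the promoter difference of −3.553 points 0.5. Limma with the block called 936 higher and 825 lower. The alternatives for class shares and for calls in other lists were chosen after seeing the data.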
